A study of Mus musculus with 2 samples.

Results

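Granular keratinocytes are the last living cells of the epidermis before the cornified surface, and 101 barcodes of the series met the rule used to find them, out of 10436 barcodes that passed a filter on cell quality. The control library held 24 of them among 5178 filtered barcodes, and the induced library 77 among 5258. Dorsal skin of mice on postnatal day 3 was measured by droplet single-cell RNA sequencing, which counts unique molecular identifiers (UMIs), each a captured RNA molecule, at the 3′ ends of polyadenylated RNA. The genotype of the control library is given as wild type and that of the other library as miR-200b induced. Dox is the treatment given for each, so the 2 groups share the drug. The labels give neither the construct, the promoter that drives the induction nor how many animals entered a library. A filtered barcode had 1000 or more UMIs, 500 or more genes and less than 15% mitochondrial UMIs. It was taken as granular when, per 10000 of its UMIs, loricrin (Lor), filaggrin (Flg) and filaggrin 2 (Flg2) summed to 50 or more, keratin genes summed to 30 or more, and the collagens Col1a1 and Col3a1 stayed under 20. Members were thus chosen by their measured levels of Lor, Flg, Flg2, keratins and collagens, and those values are given below as a description only.

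In the granular layer, keratinocytes fill with keratohyalin granules that hold profilaggrin and loricrin. They then crosslink these and other proteins under the plasma membrane into the cornified envelope, extrude lipids that seal the surface, and lose the nucleus. Filaggrin is cut from its precursor and broken down to small water-holding molecules. Many of the genes involved, the loricrin, involucrin, filaggrin, small proline-rich (SPRR), late cornified envelope (LCE) and S100 genes, lie side by side in the epidermal differentiation complex on chromosome 3. The microRNA-200 family is abundant in epithelia and is known for silencing the Zeb transcription factors.

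There was 1 library per group, so no test between groups was possible, and each difference below compares these 2 libraries. Intervals are exact, at 95%, and cover counting error only. Granular cells were deep: the control members had a median of 73070 UMIs (range 1167 to 158229) and the induced members 60187 (range 1000 to 145755), against medians of 16167 and 20833 over all epithelial cells. Together they held 1939068 UMIs and 4681045 UMIs. In doublet scoring, none of the 24 control members and 14 of the 77 induced members (18.2%) were among the highest-scoring 7% of barcodes. Krt5 and Krt14, keratins of the basal layer, summed to 10 or more UMIs per 10000 in 4 control and 13 induced members. Markers of non-epithelial cells were low. The 8 immune markers summed to 0.516 and 38.5 CPM (counts per 1000000 member UMIs) in the control and induced cells, and 7 of them, Ptprc, Cd74 and Cd3e included, were at 0 in the control cells, while Cd3e and Cd207 were at 0 in the induced cells. The 9 fibroblast markers summed to 73.7 and 64.9 CPM. Hair shaft markers summed to 0 and 2.14 CPM, and inner root sheath markers to 149 and 193 CPM. Keratins of these 2 hair lists reached 5 UMIs per 10000 in 0 control and 3 induced members, with a highest value of 20.9. Markers of the sebaceous gland summed to 268 and 335 CPM, and those of the upper hair follicle, which include Krt17, Krt79 and Cst6, to 18821 and 13114 CPM. The 8 markers of the companion layer and outer root sheath of the follicle summed to 6264 and 11283 CPM. Of these, Krt75, Lgr5, Lhx2 and Tbx1 were at 0 in the control cells and Tbx1 alone in the induced cells. The part of these other cells in the results below was not tested. The libraries shared 74 barcodes of all those deposited, and no member's barcode occurred in the other library.

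Krt1 and Krt10, which count among the keratins of the rule, are the keratin pair of the suprabasal layers, and summed to a median of 357 UMIs per 10000 in the control members and 453 in the induced members, and were under 100 in 4 control and 3 induced members. Hornerin (Hrnr), a filaggrin-like granule protein, which the rule did not use, had medians of 4.71 and 10.9 UMIs per 10000. Involucrin (Ivl), an early envelope protein, had 8.54 and 8.85. Counts below of members in which a gene was found are at full depth, and free RNA can add single UMIs to them.

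Granular cells were next set beside spinous cells, the layer below. Spinous cells were taken as keratinocytes with Krt1 and Krt10 at 100 or more and the granular sum under 50, and numbered 241 and 638. Of 4149 genes measured in both libraries, 244 (5.88%) were at least 2-fold higher in granular cells in both libraries and 193 (4.65%) were at least 2-fold lower. These are differences between groups of cells that the rule itself separates. Leaving out Lor, Flg and Flg2 and ranking by the smaller of the 2 libraries' ratios, the first gene was Wfdc21, with 1500 CPM in granular against 1.61 in spinous cells of the control library and 289 against 1.83 in the induced library. Hrnr stood at 1318 against 5.40 CPM and at 1723 against 35.1 CPM. Next came Crct1, a gene of the LCE cluster, the serine protease inhibitor Serpina12, the nuclease Dnase1l2, corneodesmosin (Cdsn), the secreted protein Slurp1, Krt23, Rnf227, Lypd5, Kprp and the growth factor Ereg. Cdsn, which glues corneocytes to each other, stood at 493 against 2.53 CPM in the control library and 1846 against 99.5 CPM in the induced library. Lower in granular cells of both libraries were Clca3a2, the BMP target Id1, the cytokine feedback gene Socs3, the water and glycerol channel Aqp3 and Krt14. Krt14 was at 401 against 9672 CPM in the control library and 755 against 2417 CPM in the induced library.

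Granular cells made up 0.576% of epithelial cells in the control library (24 of 4170, interval 0.369 to 0.855) and 1.72% in the induced library (77 of 4475, interval 1.36 to 2.15), a ratio of 2.99. The intervals did not overlap. Spinous cells also took a larger share in the induced library, 14.3% against 5.78%. Basal cells, taken by Krt5 and Krt14, stood at 41.9% and 42.1%. Both suspensions were mixed from separated epidermis and dermis, so shares depend on that mixing too, and its part in the difference was not tested. Shares depend on the cell filter as well. Among barcodes that failed it, 108 control and 85 induced had a granular sum of 50 or more. Of these, 100 and 67 had under 1000 UMIs, and their part in the difference was not tested either. The lowest control member had 52.2 UMIs per 10000 and the highest cell outside had 41.5, while in the induced library the lowest member lay at the threshold of 50 and the highest cell outside at 48.7. With a threshold of 25 in place of 50, the shares were 0.624% and 3.17%, a ratio of 5.09.

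Member UMIs were summed per library, scaled to CPM and compared as log2 ratios of induced over control with 5 CPM added to both. Among 4311 genes with a mean of 20 CPM or more and 100 or more UMIs, 177 (4.11%) were at least 2-fold higher in the induced cells and 248 (5.75%) at least 2-fold lower, 9.86% in all. The median log2 ratio over all of them was -0.09. The counts of gene groups below are read against these shares. Some groups are also given with 4 bins of the granular sum weighted equally, where 7.79% of all measured genes were higher and 5.75% lower, or with each cell weighted equally, where 6.25% were higher and 7.45% lower.

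The genes that chose the cells differed in balance between the libraries. Lor stood at 22753 CPM in the control cells and 15022 CPM in the induced cells, a log2 ratio of -0.60, which was -1.32 with each cell weighted equally and 0.79 with the bins of the granular sum weighted equally. Per cell, Lor ran from 2.40 through a median of 109 to 1511 UMIs per 10000 in the control members, and from 16.4 through 107 to 685 in the induced members. The medians were close, and the control cells spread further at both ends. Flg stood at 18225 and 5248 CPM, a log2 ratio of -1.80, with medians of 123 and 34.5 UMIs per 10000. Flg at 50 or more was seen in 19 of 24 control members but 27 of 77 induced members, while Lor at 50 or more was seen in 13 of 24 and 68 of 77. High Flg was the more frequent of the 2 in the control library, and high Lor in the induced library. Flg2 was low in most cells of both libraries, at 956 and 130 CPM, with medians of 0.867 and 0.134 UMIs per 10000. With the 4 bins of the granular sum described below weighted equally, the Flg2 log2 ratio was -0.43 in place of -2.83. The ranges of the 3 genes overlapped between the libraries.

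**Figure D1:**
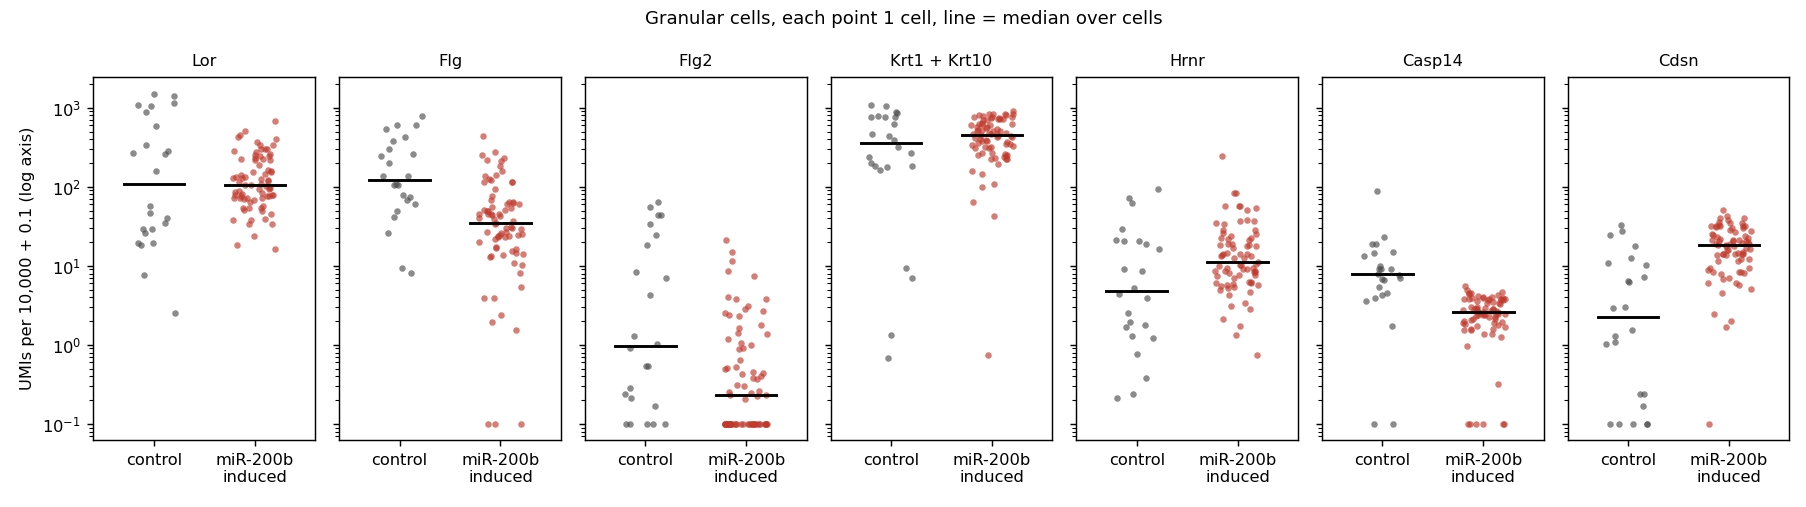
Levels of 7 genes or gene pairs in each granular cell, in UMIs per 10000 plus 0.1 on a log axis, with 24 control and 77 induced cells and a line at the median. Medians of Lor were close (109 and 107), Flg and Casp14 were lower in the induced cells (34.5 against 123, and 2.51 against 7.72), and Cdsn was higher (18.04 against 2.13).

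Of 11 measured genes in the list for filaggrin processing, out of 16, 1 was at least 2-fold higher, 1 lower and 9 within 2-fold. Their median log2 ratio was 0.30. The lower gene was Casp14, the caspase of the granular layer that takes part in filaggrin breakdown. It stood at 929 CPM in the control cells and 268 in the induced cells, a log2 ratio of -1.78. In the control members Casp14 ran from 0 through a median of 7.72 to 89.6 UMIs per 10000, and in the induced members from 0 through 2.51 to 5.42. A level of 5 or more was reached by 17 of 24 control members and 1 of 77 induced members, and the groups overlapped below that level. A Casp14 UMI was found in 22 of 24 control and 71 of 77 induced members, and after thinning every cell to 2000 UMIs in 18 of 22 and 35 of 75. In collagen-rich cells, which should lack it, the thinned shares were 0.747% and 0%, where 0 of 281 cells has an exact upper limit of 1.30%. With the bins weighted equally 5 of the 11 genes were higher and 1 lower, with a median of 0.88. The protease Asprv1, which cuts profilaggrin, was at 6385 and 5890 CPM, and bleomycin hydrolase (Blmh) and histidase (Hal), which act on the released peptides and on histidine, had log2 ratios of 0.88 each. Gm94, whose part in filaggrin processing was not tested, was at 197 and 433 CPM, a log2 ratio of 1.12. However, 3 cells held 81.4% of its control UMIs, and with each cell weighted equally its ratio was 0.18.

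The LCE genes, which encode small proteins of the mature envelope, showed the largest deficits, and these came from very few cells. Of 24 listed, 11 were measured, and 10 were at least 2-fold lower in the induced cells, with a median log2 ratio of -4.96. Besides LCE genes the list holds Crct1, Kprp and Lelp1. Crct1 is among the 10 lower genes, and Kprp was the gene within 2-fold. Lce1m was at 1276 CPM in the control cells and 7.26 in the induced cells, a log2 ratio of -6.71. Lce1b stood at 723 and 4.27 CPM, Lce1a1 at 647 and 7.48 CPM, and Lce1a2 at 484 and 2.35 CPM. Summed over the 14 Lce1 genes listed, 7346 of 7448 control UMIs (98.6%) lay in 3 of the 24 members, 12.5% of them (interval 2.66 to 32.4). In the induced library 130 of 172 Lce1 UMIs lay in 1 of 77 members, 1.30% (interval 0.0329 to 7.02), a barcode of 1442 UMIs. The share of Lce1-rich cells therefore had overlapping intervals in the 2 libraries. Without those cells the Lce1 sum was 54.8 CPM in the control and 8.98 CPM in the induced library. Without the 3 control cells only 3 genes of the list passed the filter on low values, 1 of them 2-fold lower. Lce1b then had a log2 ratio of 0.27 and Lce1a1 of 0.12.

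The 3 Lce1-rich control cells were also extreme in other ways. Their granular sums were 2173, 2055 and 1066 UMIs per 10000, and their Krt1 and Krt10 sums only 1.24, 0.573 and 9.24, where the median of control members was 357. Their Lce1 sums were 981, 1023 and 564 UMIs per 10000. They held Lor at 1511, 1393 and 1048 and Casp14 at 14.3, 18.6 and 89.6. The pair with the highest sums had closely alike profiles, with a scatter of 1.64 times counting noise per gene, where the other 230 pairs of control members of 10000 or more UMIs had at least 3.29. The lowest value among 2556 induced pairs was 1.44. Whether these barcodes came from separate cells was not tested. Of members with a granular sum of 400 or more, 3 of 11 control cells and 1 of 8 induced cells were Lce1-rich.

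**Figure D2:**
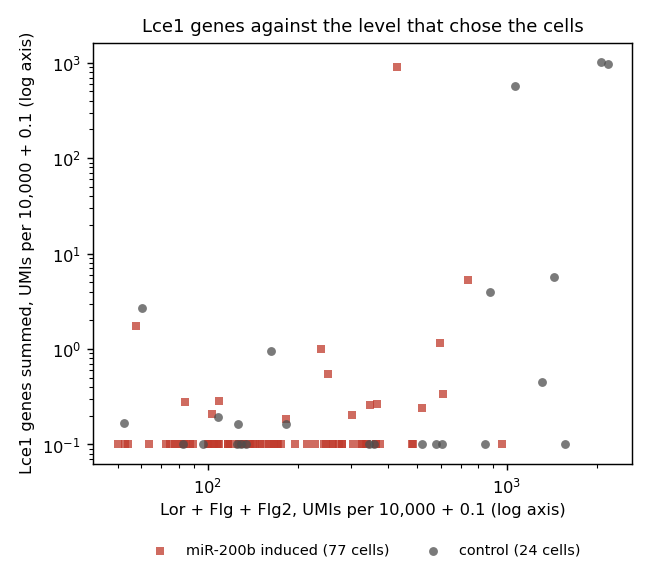
The sum of the Lce1 genes against the sum of Lor, Flg and Flg2 in each granular cell, both in UMIs per 10000 plus 0.1 on log axes, with control cells as circles and induced cells as squares. In the upper part lie 3 control cells with sums of 564 to 1023 and 1 induced cell at 902.

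Crct1 and Kprp lie among the LCE genes and are counted with them above. Crct1 stood at 3798 and 1395 CPM, a log2 ratio of -1.44, with 58.5% of its control UMIs in 3 cells. By the median cell its order was the other way round, 4.0 UMIs per 10000 in control and 9.82 in induced members, and without the 3 Lce1-rich cells its log2 ratio was -0.45, and with the bins of the granular sum weighted equally 2.31. Kprp was at 118 and 71.8 CPM, and was found in 10 of 24 control and 60 of 77 induced members.

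The SPRR genes, whose proteins crosslink the envelope and are produced in quantity in wounded or inflamed skin, went the other way. Of 15 listed, 5 were measured, and 3 were at least 2-fold higher. Sprr1b stood at 111 CPM in the control cells and 2121 CPM in the induced cells, a log2 ratio of 4.20. Its level ran from 0 through a median of 0.157 to 16.1 UMIs per 10000 in the control members and from 0 through 14.7 to 95.6 in the induced members. A level of 5 or more was reached by 2 of 24 control and 67 of 77 induced members. Sprr2d was found in 1 control and 39 induced members, at 2.06 and 343 CPM. Sprr2b had no UMI in the control members and 1203 in the induced members, 257 CPM. That is at least 166-fold higher, taking 3 UMIs as the limit for the control library, but 3 cells held 79.6% of them. Sprr1a, at 178 and 157 CPM, and Sprr2h, at 33.0 and 17.9 CPM, were within 2-fold.

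Along the epidermal differentiation complex, from S100a14 to S100a10, 32 genes were measured, of which 7 were at least 2-fold higher and 14 lower. The complex lies on chromosome 3 of the mouse build GRCm38, with Lor at chr3:92080271-92083142, Sprr1b at chr3:92436809-92438789, Lce1m at chr3:93017810-93019060 and Flg at chr3:93273523-93293686. Ivl was at 852 and 943 CPM and Hrnr at 1318 and 1723 CPM, both within 2-fold. S100a8 and S100a9, the alarmins of inflamed epidermis, were at 60.9 and 217 CPM in the control cells and 486 and 571 CPM in the induced cells. They were not a feature of most cells. S100a8 was found in 7 of 24 and 18 of 77 members, and 3 induced cells held 94.2% of its induced UMIs. S100a6 was at 47.5 and 195 CPM, and S100a14, S100a16, S100a11 and S100a10 were within 2-fold.

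**Figure D3:**
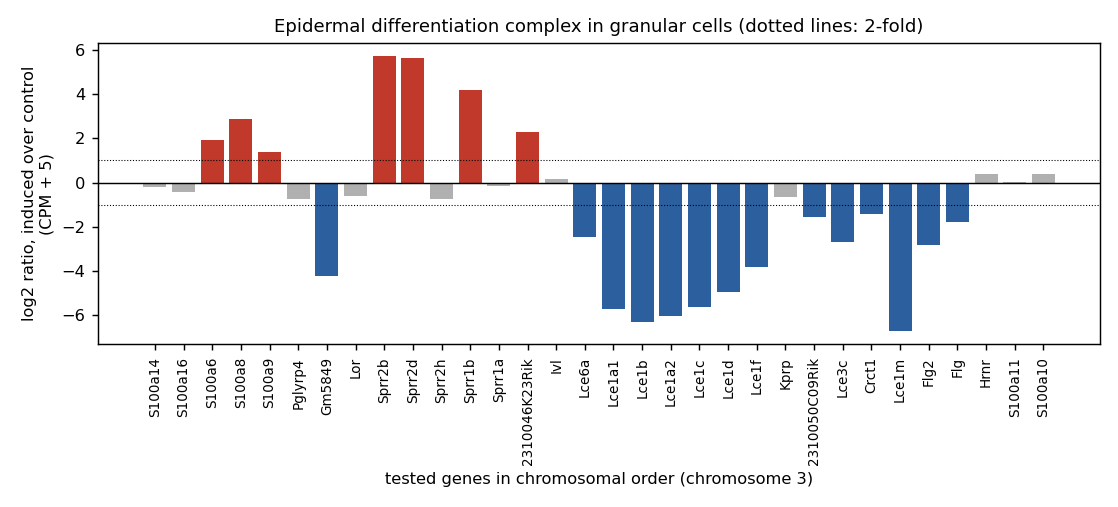
Log2 ratio of induced over control, with 5 CPM added, for the 32 measured genes of the epidermal differentiation complex in chromosomal order, red where at least 2-fold higher, blue where at least 2-fold lower and grey within 2-fold. The LCE genes form the lower stretch, resting on 3 control cells, and 3 SPRR genes lie between 4.20 and 5.71.

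Of 18 measured genes for the remaining envelope proteins and crosslinking enzymes, out of 20 listed, 1 was at least 2-fold higher, 2 lower and 15 within 2-fold. With the bins weighted equally 3 were higher and 2 lower, and with each cell weighted equally 1 and 4. The calcium sensor Calm4 stood at 14948 and 22371 CPM, Krtdap at 16991 and 19108, the galectin Lgals7 at 12937 and 11307 and suprabasin (Sbsn) at 10027 and 12913. Cornifelin (Cnfn), an envelope component, was at 1064 and 2283 CPM, a log2 ratio of 1.10. Calml3 was at 613 and 245 CPM, a log2 ratio of -1.31. The protease inhibitor Cst6 was at 9139 and 1797 CPM, and is described with Krt79 below.

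The keratins that mark wounded or stressed epidermis showed the largest excess. Krt6a had 2 UMIs in the control members, both in 1 cell, and 7001 in the induced members, or 1.03 and 1496 CPM, a ratio with an interval of 401 to 11976. Krt6b had none in the control members and 4044 in the induced members, 864 CPM and at least 558-fold higher against the limit of 3 UMIs. The 2 genes summed to 1 or more UMI per 10000 in 0 of 24 control members (interval 0 to 14.2%) and 55 of 77 induced members, 71.4% (interval 60.0 to 81.2). The level was uneven among the induced members, from 0 through a median of 3.25 to 136 UMIs per 10000 for Krt6a. Krt16, the partner keratin of the Krt6 proteins, was at 61.9 and 867 CPM, with 1 or more UMI per 10000 in 5 of 24 and 45 of 77 members. Of the 4 stress keratins, 3 were at least 2-fold higher. In basal cells of the same libraries Krt6a was at 142 and 169 CPM, Krt6b at 0.0314 and 7.90 CPM, and Krt16 at 32.6 and 303 CPM. Krt6b lies at chr15:101676023-101680287 and Krt6a at chr15:101689910-101694307 on the minus strand, so 3′ reads that cannot be told apart between these near-identical neighbours could be lost or split by the counting.

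The share of cells with a UMI was set beside that of cells that should lack the gene. After thinning to 2000 UMIs, a Krt6a UMI was found in 1 of 22 control members, in 35 of 75 induced members, 46.7%, in 11 of 281 collagen-rich cells of the induced library, 3.91%. The median depths were 60187 UMIs in the induced members and 6664 in those collagen-rich cells. Unthinned, the induced shares were 81.8% and 8.75%. For Sprr1b the induced thinned shares were 86.7% and 3.20%, unthinned 94.8% and 5.72%. Krt6a and Krt6b varied together among the 75 deeper induced members (Spearman rho 0.62, a description over cells of 1 library), while Krt6a and Krt16 varied together little (0.16).

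Krt17, also a stress keratin, differed in a manner of its own. Summed over cells it was within 2-fold, 5787 and 9468 CPM, a log2 ratio of 0.71. By cell the libraries were unlike: a level of 10 UMIs per 10000 was reached by 8 of 24 control members, 33.3% (interval 15.6 to 55.3), and 73 of 77 induced members, 94.8% (interval 87.2 to 98.6). The medians were 0.464 and 71.9 UMIs per 10000. The control members with much Krt17 were those with Krt79, a keratin of the upper hair follicle canal and the sebaceous duct. With Krt79 at 10 or more, 9 control members had a median of 121 UMIs of Krt17 per 10000, and the other 15 had 0, with a highest value of 8.98. In the induced library 18 members with Krt79 had a median of 128, and the other 59 had 68.8, with a lowest value of 5.76. Krt17 was thus spread over both kinds of induced cells.

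**Figure D4:**
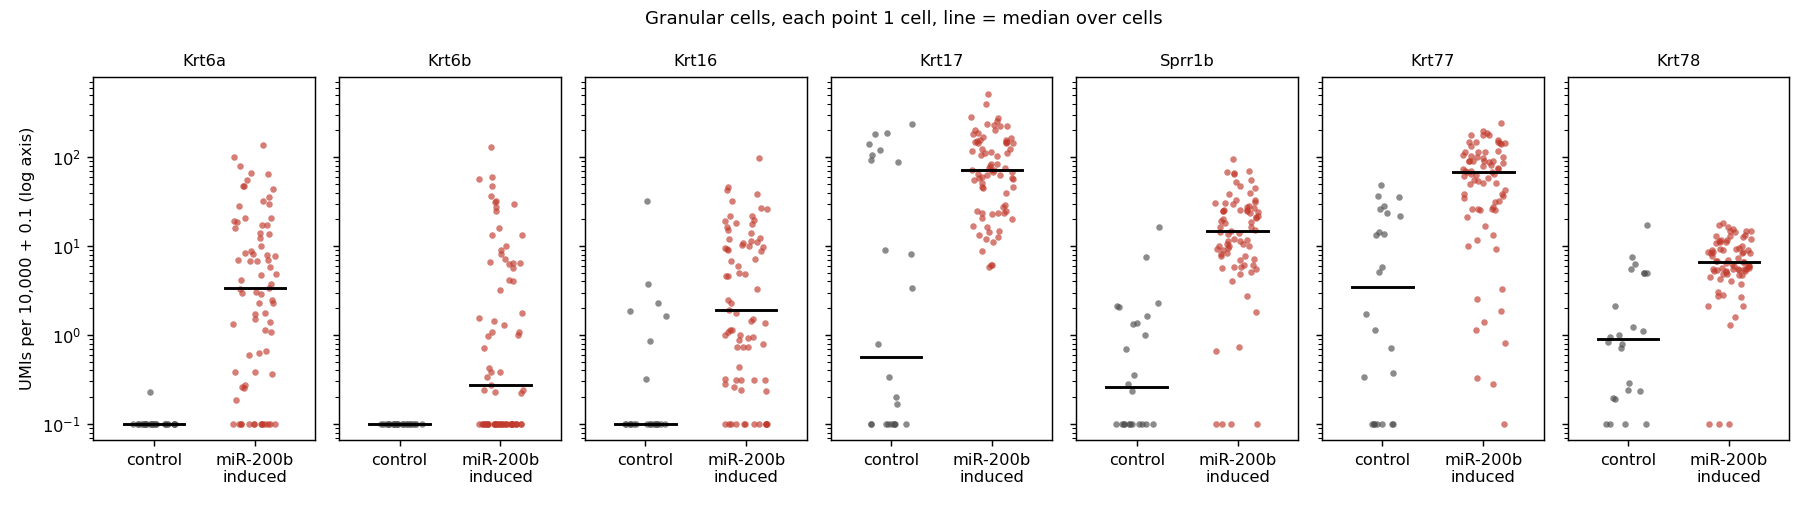
Levels of 7 genes in each granular cell, in UMIs per 10000 plus 0.1 on a log axis, with 24 control and 77 induced cells and a line at the median. Krt6a and Krt6b are at or near 0 in the control cells and reach 136 and 130 in the induced cells, and the medians of Krt77 are 3.35 and 67.8.

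The Krt79 split also divided other genes in the control library. The 2 kinds of cells differed in level of Krt1 and Krt10, with medians of 185 with Krt79 and 771 without it in the control library, and 252 and 502 in the induced library. Cells with Krt79 were 37.5% of control members (interval 18.8 to 59.4) and 23.4% of induced members (interval 14.5 to 34.4). Cst6, a cysteine protease inhibitor of the skin barrier, was at 19280 CPM in the Krt79-bearing control cells and 1839 CPM in the other control cells, but at 2260 and 1644 CPM in the induced cells. The lowest Krt79-bearing control cell had 59.5 UMIs of Cst6 per 10000, while the Krt79-bearing induced cells had a median of 16.3 and a highest value of 283, so the ranges overlapped. Follistatin (Fst), which binds activin, was at 527 CPM in Krt79-bearing control cells and had 1 UMI in the 18 Krt79-bearing induced cells, 0.864 CPM. The homeobox gene Sebox stood at 242 and 1.73 CPM in the same cells. Among cells without Krt79 the Cst6 log2 ratio was -0.16 and that of Fst 0.82, on 5 and 41 UMIs.

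**Figure D5:**
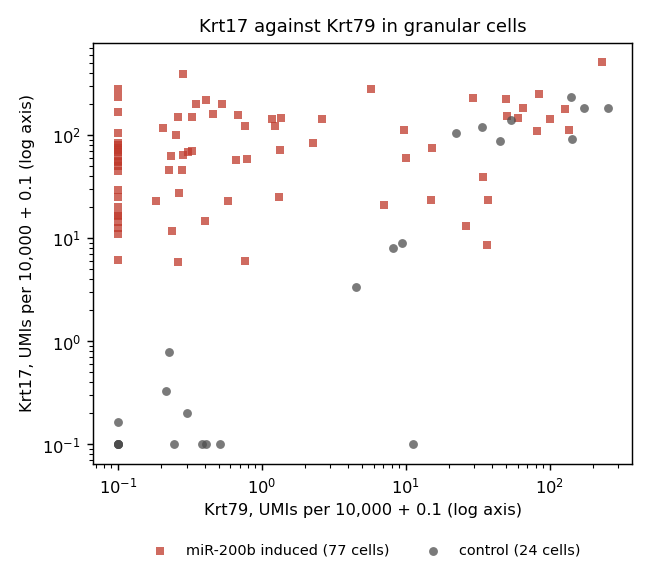
Krt17 against Krt79 in each granular cell, both in UMIs per 10000 plus 0.1 on log axes, with control cells as circles and induced cells as squares. Control cells with Krt17 of 10 or more are all cells with Krt79 of 10 or more, while induced cells have Krt17 of 5.76 or more at every Krt79 level.

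Of 7 measured suprabasal keratins, out of 8 listed, 2 were at least 2-fold higher, 1 lower and 4 within 2-fold. The lower one was Krt79, at 3736 and 1505 CPM, a log2 ratio of -1.31. Krt1, at 22723 and 19221 CPM, and Krt10, at 27852 and 28478 CPM, were within 2-fold. Krt77, a type II keratin, was at 1479 and 6836 CPM, a log2 ratio of 2.21, and reached 10 UMIs per 10000 in 10 of 24 control and 67 of 77 induced members. In cells without Krt79 the medians of Krt77 were 0.274 and 67.8 UMIs per 10000. Krt78 was at 176 and 720 CPM, a log2 ratio of 2.0, and reached 3 UMIs per 10000 in 7 of 24 and 66 of 77 members. Krt23 and Krt80 were within 2-fold. Of 3 measured genes for basal keratins and adhesion, out of 13 listed, 1 was at least 2-fold higher, 1 lower and 1 within 2-fold. The basal keratin Krt5 had a log2 ratio of 2.38, from 64.0 and 353 CPM, with 55.1% of the induced UMIs in 3 cells. Its ratio was 0.98 among members with under 10 UMIs of Krt5 and Krt14 per 10000. Krt15 was the lower gene, at 190 and 25.8 CPM, a log2 ratio of -2.66.

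Of 10 corneodesmosome genes measured, out of 13 listed, 1 was at least 2-fold higher, 1 lower and 8 within 2-fold, among them Perp at 4240 and 4915 CPM and desmoplakin (Dsp) at 1210 and 1572 CPM. Cdsn, at 493 and 1846 CPM, had a log2 ratio of 1.89 and reached 10 UMIs per 10000 in 7 of 24 control and 58 of 77 induced members. Desmocollin 3 (Dsc3), a desmosomal cadherin of the lower layers, had a log2 ratio of -1.19.

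Of 14 measured genes for the shedding of corneocytes, 2 were at least 2-fold higher and 4 lower, and with the bins of the granular sum weighted equally 1 and 2. Among the kallikreins, proteases that cut the corneodesmosomes, Klk7 was at 2116 and 1251 CPM, Klk5 at 989 and 689 CPM, and Klk8 at 1052 and 276 CPM, a log2 ratio of -1.91. Klk8 ran from 0 through a median of 10.3 to 22.1 UMIs per 10000 in the control members and from 0 through 2.63 to 8.94 in the induced members. Their inhibitor Spink5 was at 2170 and 4572 CPM, a log2 ratio of 1.07. Serpinb12, a serine protease inhibitor, was at 624 and 113 CPM, a log2 ratio of -2.41, with medians of 7.41 and 0.841 UMIs per 10000. Its level was low in the control cells with Krt79, at 41.9 CPM. Among cells without Krt79, a split chosen after values were seen, the lowest control cell, at 4.46 UMIs of Serpinb12 per 10000, lay above the highest induced cell, at 3.68. Klk9 and the cysteine protease Ctsl had log2 ratios of -2.13 and -1.74, but 75% and 70.9% of their control UMIs lay in 3 cells, and with the bins of the granular sum weighted equally Ctsl had 0.83.

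The lipid genes of the barrier were measured in 27 of 34 cases, of which 22 were within 2-fold, 4 higher and 1 lower, with a median log2 ratio of 0.32. With the bins weighted equally 8 were higher, and with each cell weighted equally 6. Elovl1, which lengthens fatty acids for ceramides, was at 1019 and 2561 CPM, a log2 ratio of 1.33, with medians of 8.38 and 21.4 UMIs per 10000. Elovl4 was at 1008 and 1533 CPM, within 2-fold. Nipal4, known from inherited ichthyosis, was at 55.2 and 197 CPM, the ceramide enzyme Sptlc3 at 91.8 and 233 CPM, and the lipase Lipk at 24.2 and 99.6 CPM. The alkaline ceramidase Acer1 was the lower gene, at 191 and 51.1 CPM, a log2 ratio of -1.81. Among 9 tight junction genes, 1 was past 2-fold, and 3 with each cell weighted equally. Claudin 4 (Cldn4) was at 160 and 479 CPM, a log2 ratio of 1.55, and Cldn1 at 132 and 233 CPM.

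Of 28 measured regulators of differentiation, 25 were within 2-fold, 3 higher and none lower, and with the bins weighted equally 6 were higher and 1 lower. Klf4 was at 1355 and 1494 CPM and Cebpb at 1202 and 1261 CPM. Hopx, a homeodomain protein of terminal differentiation, was at 396 and 1087 CPM, Grhl3, a factor for barrier formation, at 58.3 and 145 CPM, and Ehf, an epithelial Ets factor, at 6.70 and 57.3 CPM. Of 16 immediate early and heat shock genes, which respond to tissue dissociation, 15 were within 2-fold, among them Fos at 1244 and 1669 CPM and Hspa1a at 1292 and 1517 CPM. Ier3 was higher, at 69.1 and 231 CPM.

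Of 12 measured cytokine and defence genes, 4 were higher and 1 lower. Among members with under 10 UMIs of Krt5 and Krt14 per 10000, 1 of 11 was higher, Il1f6, and 1 lower, against 4.6% and 6.54% of all genes in those members. Il1f6, an alarmin of the IL-36 group, was at 43.3 and 288 CPM and found in 8 of 24 and 65 of 77 members. Il1f9, of the same group, had a log2 ratio of 1.04, and of -0.07 with each cell weighted equally. Ccl20, at 107 and 364 CPM, and Defb6, at 119 and 299 CPM, were each held largely by 3 cells in both libraries. Il18 was at 267 and 45.9 CPM, with 77.0% of the control UMIs in 3 cells, and had a log2 ratio of 0.75 with the bins weighted equally. Of 11 measured genes for the removal of nucleus and organelles, 10 were within 2-fold and Dnase1l2, a nuclease of the cornifying cell, was at 120 and 346 CPM. With each cell weighted equally, none of 12 was at least 2-fold higher and 5 were lower, with a median log2 ratio of -0.67. Of 11 channel and calcium genes 9 were within 2-fold. The connexin Gjb2 was at 41.3 and 126 CPM, and Aqp3 at 226 and 26.7 CPM, a log2 ratio of -2.87. Among the listed targets of the oxidative stress factor NRF2, 3 were measured, with Sprr2d higher as above, Gstm1 at 98.0 and 17.1 CPM and Hmox1 at 90.8 and 12.4 CPM. Hmox1 had 88.1% of its control UMIs in 3 cells, and a log2 ratio of 0.09 without the Lce1-rich control cells.

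By size alone, the highest ratios after the keratins, the SPRR genes and Gm13648, which is described last, belonged to Ifitm3 and Ifitm2, interferon-induced membrane proteins, the sodium pump subunit Atp1b1, 2310081O03Rik and Chil1. Ifitm3 was at 2.58 and 120.5 CPM, on 5 and 564 UMIs, with 42.7% of the induced UMIs in 3 cells. After thinning, an Ifitm3 UMI was in 0 of 22 control members, 10 of 75 induced members (13.3%) and 51.2% of induced collagen-rich cells. Ifitm2 was at 78.9 and 840 CPM and was found in 19 of 24 and 76 of 77 members, with medians of 0.428 and 8.04 UMIs per 10000. Atp1b1 was found in 3 and 63 members, 2310081O03Rik in 4 and 70, and Chil1, a chitinase-like protein, in 11 and 40. On the lower side stood Lsmem1, found in 13 of 24 and 3 of 77 members, and Gm5849 and Aif1l, of which 3 cells held 99.5% and 93.3% of the control UMIs.

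Spinous cells of the same 2 libraries were set beside these values. Of the 4311 measured genes, 6.08% were at least 2-fold higher and 2.67% lower in induced spinous cells. Of the 177 genes higher in granular cells, 106 were at least 2-fold higher in spinous cells too, and of the 248 lower, 69 were lower in both. Both layers come from the same libraries, so these counts are not independent. In spinous cells Krt6a was at 23.1 and 705 CPM, Krt16 at 712 and 2587, Krt17 at 1837 and 4756, and Sprr1b at 24.3 and 754. Krt6b was at 8.61 and 135 CPM. Cdsn was at 2.53 and 99.5 CPM and Spink5 at 125 and 858 CPM. Casp14 was at 136 and 178 CPM in spinous cells. Flg, at 88.9 and 143 CPM, and Lor, at 61.5 and 286 CPM, are held down there by the rule that chose spinous cells. Krt77 was at 800 and 1294 CPM. Whether these ratios differed between layers was not tested.

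Levels were also set side by side within bins of the granular sum, which is the value that chose the cells, so they are given as a description only. The bins from 50 to 100, 100 to 200, 200 to 400 and 400 upward held 4, 7, 2 and 11 control cells and 15, 32, 22 and 8 induced cells, and the 200 to 400 bin rests on 2 control cells. Krt6a and Krt6b together were at 0, 2.78, 0 and 0 CPM in the control bins and at 2541, 2321, 2031 and 3439 CPM in the induced bins. Sprr1b was at 54.8, 194, 35.8 and 69.9 CPM against 1866, 2383, 1605 and 2694 CPM. Casp14 was at 570, 684, 680 and 1557 CPM against 277, 241, 292 and 342 CPM. For these genes each induced bin lay on the same side of its control bin as the whole. Cdsn was at 21.9, 248, 1056 and 1147 CPM in the control bins and at 1328, 1479, 2607 and 2715 CPM in the induced bins. The medians per cell were 9.23 UMIs per 10000 in the lowest induced bin and 10.2 in the highest control bin. Flg was at 5572, 10355, 19348 and 38593 CPM against 2211, 3752, 7225 and 14798 CPM. Lor was at 1491, 3550, 16342 and 64736 CPM against 5115, 9783, 22692 and 44269 CPM, lower in the control cells in 3 bins and higher in the last. The first 3 bins are cut on both sides by the sum of Lor, Flg and Flg2, so there less Flg goes with more Lor by construction. The last bin has no upper limit, and in it both genes were lower in the induced cells. Control sums there reached 2173 UMIs per 10000 and induced sums 961, so the libraries are not matched in that bin. Hrnr climbed along the bins in both libraries, from 142 to 3673 CPM and from 610 to 5421 CPM. Asprv1 reached 16582 and 15882 CPM in the last bins, from 1295 and 3769 CPM in the first.

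The mature microRNA is not captured by this assay. Gm13648, at chr4:156052715-156059802 on the minus strand, is an annotated transcript that spans the miR-200b hairpin. It had 2 UMIs in 2 of 24 control members and 584 UMIs in 53 of 77 induced members, 1.03 and 125 CPM, a ratio with an interval of 33.3 to 1001. After thinning to 2000 UMIs a UMI was left in 0 of 22 control members, with an exact upper limit of 15.4%, and in 13 of 75 induced members, 17.3%. In collagen-rich induced cells the share was 3.56% thinned and 9.09% at full depth. In spinous cells of the induced library it was at 451 CPM. The mature microRNA, with its seed at bases 2 to 8 in capitals, and a match in each of 4 genes are shown, since this is the pairing that the next comparison counts. The matches are on the RNA strand in DNA letters, in 3′ untranslated regions (UTRs), with the 7 bases that pair with the seed in capitals, and belong to genes lower in both granular and spinous induced cells, chosen after their values were seen. The microRNA sequence is from RefSeq on GRCm38.p6, at chr4:156055685-156055706 on the minus strand.
mmu-miR-200b-3p: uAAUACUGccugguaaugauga
Sptssa, chr12:54646153-54646179, minus strand: actttgatatCAGTATTttcttaacct
Acer1, chr17:56954424-56954450, minus strand: ttctgctccaCAGTATTcagcttgcat
Tuba1b, chr15:98931528-98931554, minus strand: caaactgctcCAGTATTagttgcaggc
Penk, chr4:4133638-4133664, minus strand: tcttgaagctCAGTATTggtctcttat

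Of 4254 measured genes with a 3′ UTR in the annotation, 644 held the letters CAGTATT, searched on the transcript strand of the longest 3′ UTR. Their median log2 ratio was -0.21, against -0.06 for the 3610 genes without the letters, and 60.4% of them lay under the median of all measured genes. In granular cells 50 of the 644 (7.76%) were at least 2-fold lower and 13 (2.02%) higher, against 5.32% and 4.38% of the genes without a match. For 148 genes with the longer match CAGTATTA the median was -0.29, and 12.8% were at least 2-fold lower. Genes with a match had longer 3′ UTRs, with a median of 2555 against 890 bases. Among UTRs of 1000 bases or more, the medians were -0.20 for 558 genes with a match and -0.04 for 1655 without. In spinous cells the medians were -0.18 with and 0.02 without a match. A match is a description of the letters and no shown target site.

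Among the 4 genes, Sptssa, a subunit of the enzyme that starts ceramide synthesis, was at 592 and 165 CPM, a log2 ratio of -1.81, with medians of 6.29 and 1.43 UMIs per 10000, and was found in 24 of 24 and 69 of 77 members. Acer1, which breaks ceramides down, is described above, with 1 match. The tubulin gene Tuba1b was at 162 and 42.3 CPM, and the opioid precursor Penk at 52.6 and 4.27 CPM. Their log2 ratios in spinous cells were -1.47, -1.53, -1.74 and -1.31 for Sptssa, Acer1, Tuba1b and Penk. Of 20 named targets of the family from the literature, 5 passed the filter on low values, and none of these was past 2-fold: Dusp1, Rhoa, Ywhag, Plcg1 and Qk, with log2 ratios of 0.22, -0.56, -0.70, -0.18 and -0.96. With no filter but 1 UMI, 16 were measured, 3 of them at least 2-fold lower and none higher, against 3.26% and 2.6% of 14577 genes. Genes under 5 CPM in both libraries cannot reach 2-fold with 5 CPM added, which holds these shares down. Among the 4311 genes past the filter 5.75% were lower. The 3 of 16 are therefore given as a description only. The lower ones were Sec23a, at 22.2 and 4.49 CPM, Cfl2, at 22.7 and 6.41 CPM, and Jag1, at 23.2 and 8.97 CPM. Sec23a had 3 matches in its 3′ UTR and Cfl2 had 2, while Jag1, with a log2 ratio of -1.01, had none. Zeb1 had no UMI in either library's granular cells, and Zeb2 had 4.13 and 0.641 CPM. Casp14, Flg, Cst6, Fst and the stress keratins had no match in their 3′ UTR, and Flg2 had no annotated 3′ UTR.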

How the data were processed

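Per the labels, dorsal skin of mice on postnatal day 3 was split into epidermis and dermis, dissociated, mixed and run on 10x Genomics 3′ chemistry. The authors deposited raw UMI counts, and the submitters' processing notes name Cell Ranger 6.0.0 and mm10, and no cell annotation was used. Of 32285 gene identifiers, 32158 were found in GENCODE vM21 (GRCm38), from which positions and 3′ UTRs were taken. The members and gene lists were chosen with earlier results of these data known. Member UMIs were summed per library (1939068 and 4681045) and scaled to CPM. Genes with a mean of 20 CPM and 100 UMIs were compared as log2 of CPM plus 5, and called past 2-fold at a log2 ratio of 1 or more in size. With 1 library per group no p-value was computed.

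Named genes were the 12 highest and 12 lowest log2 ratios (50 CPM or more, Poisson intervals apart, without mitochondrial, ribosomal, haemoglobin, sex-linked and other cell type markers). Added to them were Lor, Flg, Flg2 and Gm13648, and the 12 leading genes over spinous cells. For the lists described, genes came mostly from the 4 of highest mean CPM with the largest rise and fall, though not all of these are given. Of 4 measured ornithine and arginine genes, which are not described, 1 was higher and 2 lower. Shares have exact Clopper-Pearson intervals and ratios exact conditional binomial intervals, at 95%, all for counting error only, and a fold against 0 UMIs is taken against 3 UMIs. Shares of cells with a UMI were taken after thinning to 2000 UMIs, which left out 2 control and 2 induced members. Doublets were kept, as in the rule. Scrublet scores (scanpy 1.11.5) were used for an alternative, since automatic calls marked only 3 and 1 cells. The ratio step was tested on simulated data. Other alternatives were thresholds, cell filters, weightings, scalings, pseudocounts and subsets of members. Software was scipy 1.17.1, numpy 2.4.6, pandas 2.3.3 and matplotlib 3.10.9 under Python 3.11.15.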

Additional observations from a re-analysis of the deposited data

Results flagged for a closer look

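In 5 measured genes the induced library was at least 2-fold on one side of the control in granular cells and at least 2-fold on the other side in spinous cells. With 1 library per group the difference between the layers was not tested. Crct1 had log2 ratios of -1.44 in granular and 1.68 in spinous cells, Areg -1.18 and 1.56, Ggct -1.15 and 1.21, and Cpe -1.26 and 2.53. For Crct1 the granular ratio was -0.45 without the 3 Lce1-rich control cells and 2.31 with the bins of the granular sum weighted equally, on the side of the spinous cells. Krt5 had 2.38 in granular and -1.90 in spinous cells. In granular cells 3 members held 68.0% of the control UMIs of Areg, 58.5% of those of Crct1, 44.5% of those of Ggct and 41.4% of those of Cpe. For Krt5 3 members held 78.2% of the control and 55.1% of the induced UMIs.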

How the results depend on the processing

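Of the 24 genes named by size, 15 stayed past 2-fold on the same side under all 16 alternatives, among them all 12 on the higher side. The 2 filter settings among the 16 cannot move a single gene's ratio, and setting the median to 0 moves all genes alike by 0.09. Of the 7 Lce1 genes among them Lce1m alone did, at -1.22 or lower. Without the 3 Lce1-rich control cells the log2 ratios were 0.27 for Lce1b, 0.040 for Lce1a2, 0.12 for Lce1a1 and 0.28 for Lce1c, and with only members of Krt1 and Krt10 at 100 or more they were 0.28, 0.044, 0.71 and 0.29. With only members of Krt79 under 10, Gm5849 had 0.30 and Fst 0.82. These subsets were chosen after seeing the data, and they leave out the cells that held the UMIs. Lor, at -0.60, was -1.32 with each cell weighted equally and 0.79 with the bins of the granular sum weighted equally.

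With a threshold of 25 the induced share was 3.17%. The counts of higher and lower genes, 177 and 248, were 379 and 475 of 14577 with no filter but 1 UMI, and 66 and 70 with a filter of 100 CPM. With a pseudocount of 20 CPM 128 were lower, and with equal bins 336 were higher. With only members of Krt79 under 10 the counts were 255 and 179. The other settings kept these counts within 1.5 times. The median of genes with a seed match, -0.21, was -0.12 after subtracting the median of all genes and -0.29 for the 8-base match. No paired analysis was possible because each group has 1 library.

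The limits are 24 control cells, 3 of which hold 24.2% of that group's UMIs, unknown numbers of animals, and low genes at few UMIs per cell.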
